A study of Mus musculus with 12 samples.

Results

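Complex I, the NADH:ubiquinone oxidoreductase of the inner mitochondrial membrane, was followed through 35 nuclear genes that encode its subunits, chosen by mouse symbol out of 18011 genes measured in liver. All 35 had at least 1 probe set whose own gene number matched, and 80 probe sets in all. Each gene was read through its brightest probe set, ranked by the mean of all 12 arrays. The arrays, Affymetrix Mouse Genome 430 2.0, measured total RNA from 6 Sirt4-knockout (KO) and 6 wild-type (WT) males, littermates of strain 129SV aged 7 to 8 months, each fasted for 16 h and given 1 array. The study set KO against WT liver to ask what loss of SIRT4, a sirtuin of the mitochondrial matrix, does to hepatic gene expression in fasting. The labels give neither the allele nor the cells in which it was deleted. Values are intensities on a linear scale, and differences are log2 fold changes, KO minus WT, of log2(intensity + 50).

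Complex I takes electrons from NADH, passes them along a flavin and a chain of iron-sulphur clusters to ubiquinone, and pumps protons as it does so. It is built from modules: the N module oxidises NADH, the Q module reduces ubiquinone, and the membrane arm, here divided by the mitochondrially encoded subunit (ND1, ND2, ND4 or ND5) around which each part assembles, moves protons. A few subunits carry the catalysis and are conserved from bacteria, and the many others, called supernumerary, serve assembly and stability. In fasted liver the complex reoxidises the NADH that fatty acid oxidation supplies.

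Genotype and tissue were checked first. Sirt4 itself read 81.0 to 121 in KO livers, against 153 to 187 in WT livers, without overlap, with means of 104 ± 16.4 in KO livers and 172 ± 14.5 in WT livers (intensity, SD, n = 6 each). Its log2 fold change was -0.53 (limma adjusted p = 0.0358), and it was the only gene of 18011 past the adjusted threshold of 0.05 (0.00555%). It missed that threshold when any 1 of WT replicates 1 to 5 or KO replicates 1, 2, 3 and 5 was left out. Array medians lay between 36.6 and 38.69. The 8 measured hepatocyte markers, among them Hnf4a and Tat, summed to 104924 to 112438 in KO livers and 105439.9 to 110991 in WT livers. Title numbers fall into a 7200 series (5 KO, 2 WT) and a 7500 series (1 KO, 4 WT), and the titles of 3 KO animals and 0 WT animals carry a suffix. The labels explain neither.

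Promoters were read from RefSeq windows of GRCm38.p6, 250 bases before to 50 bases after each gene's start, for letters of factors known to drive respiratory chain genes. Such windows were matched for 32 of the 35 members and for 27025 genes. On either strand, GCATGCGC, a core of the NRF1 motif, was in 3 member genes (Ndufa6, Ndufa8 and Ndufa11), or 9.38%, and in 3.05% of all genes. The ETS letters CCGGAAG, bound by GABP, were in 4 members (12.5%) and 9.93% of all genes, and the longer ACCGGAAG, which contains them, in 3 members (9.38%) and 2.60%. AAGATGGC, a YY1 core, was in 7 members (21.9%) and 3.19% of all genes. In all 7 (Ndufa3, Ndufa9, Ndufb8, Ndufc1, Ndufs4, Ndufs6 and Ndufs7) it ran on the gene's own strand and began 23 to 39 bases after the start. These letters include ATG, the start codon, and the starts of the coding sequences were not read. A YY1 site and a start codon therefore cannot be told apart in these windows. TCAAGGTCA, a motif of estrogen-related receptors, was in 0 of 32 members and 0.466% of all genes, and the shorter AAGGTCA, contained in it, in 3 members (9.38%) and 5.38%. The letters were chosen after other spellings had been looked at, and a match is a description of the window only.

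Stretches of 3 of these windows, chosen with the values known, show the letters where the values stood on either side of 0, with Ndufa6 above 0 and Ndufa8 below it both holding the NRF1 core, and Ndufa9 the YY1 core. Capitals mark the core, all 3 lie on the minus strand, and each is written 5′ to 3′ along the gene, for Ndufa6 at chr15:82354282-82354441, for Ndufa8 at chr2:36049329-36049488 and for Ndufa9 at chr6:126849097-126849126 (GRCm38.p6). The core begins 83 bases before the start in Ndufa6 and 8 bases before it in Ndufa8, and 30 bases after it in Ndufa9.
Ndufa6: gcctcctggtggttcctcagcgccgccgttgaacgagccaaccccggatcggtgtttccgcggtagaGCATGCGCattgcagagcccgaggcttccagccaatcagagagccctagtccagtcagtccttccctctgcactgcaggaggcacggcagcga
Ndufa8: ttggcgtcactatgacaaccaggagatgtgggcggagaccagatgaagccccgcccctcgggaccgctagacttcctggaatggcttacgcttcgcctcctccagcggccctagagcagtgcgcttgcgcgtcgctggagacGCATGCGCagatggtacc
Ndufa9: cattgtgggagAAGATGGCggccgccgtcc

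Differences between genotypes in the complex I genes were small, most of them slightly above 0. Of the 35 members, 28 had a log2 fold change above 0 and 7 below, with a median of 0.042, and the values ran from -0.065 (Ndufa8) to 0.091 (Ndufa9). Over all genes 50.4% lay above 0, with a median of 0.00066, and among the 1805 genes with a mean intensity of at least 1000, where all members but Ndufc2 belong, 61.2% lay above 0 with a median of 0.017. No member passed the limma test adjusted over all 18011 genes (lowest adjusted p = 0.785, Ndufa9). At an unadjusted p under 0.05 there was 1 member of 35, or 2.86%, against 6.29% of all genes. No member's groups were free of overlap, where 0.244% of all genes were. Apart from Ndufc2, the 95% intervals reached at most 0.22 upward (Ndufb3, a fold of 1.17) and -0.16 downward (Ndufa8, a fold of 0.894), so larger differences in these probe sets lay outside the intervals.

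**Figure D1:**
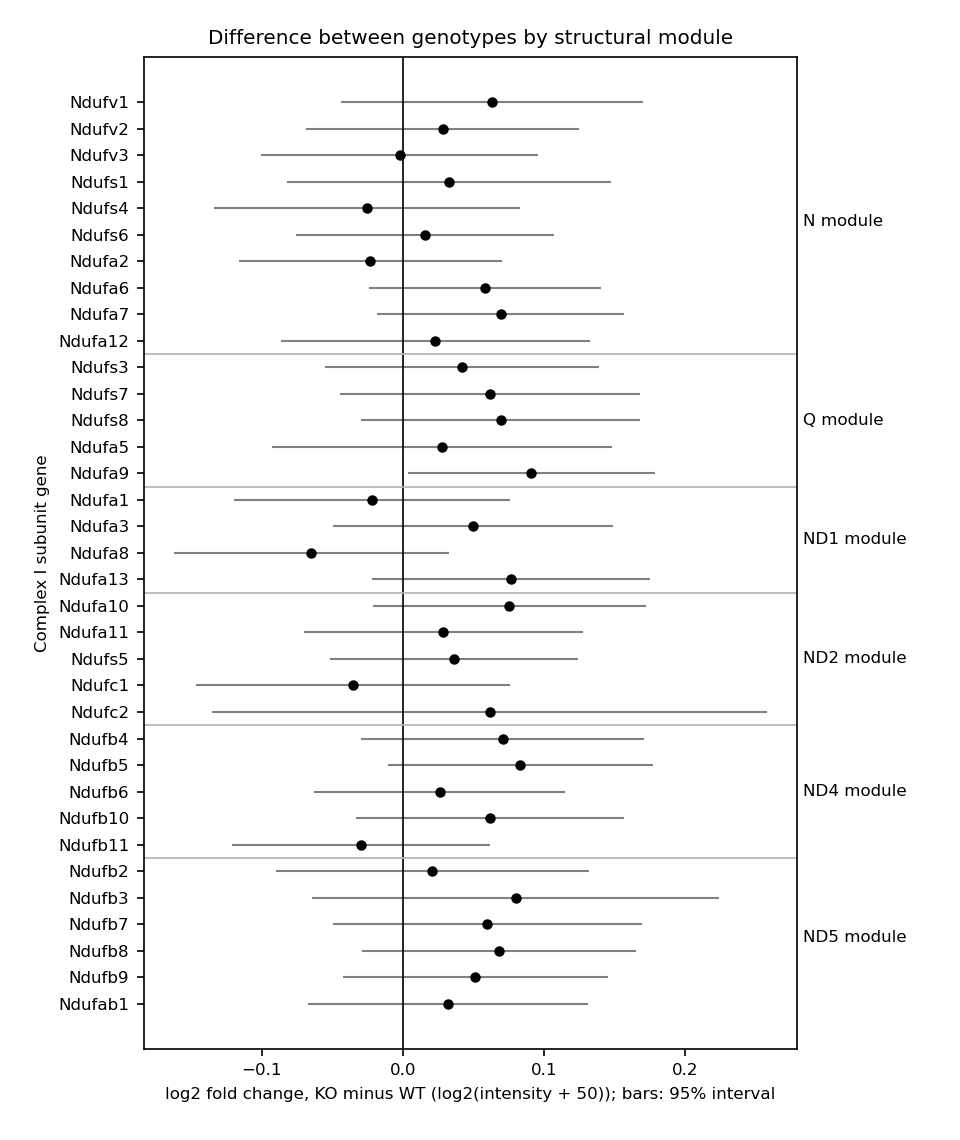
The log2 fold change of each of 35 complex I subunit genes, KO minus WT on log2(intensity + 50), is drawn as a point with its 95% interval, and genes run down the page by structural module. Points lie to the right of 0 for 28 genes, and Ndufa9 is the gene whose interval lies wholly above 0 before adjustment over all genes.

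The mean over the 35 members, taken per animal after centring each gene on its 12 arrays, averaged 0.018 ± 0.018 in KO livers and -0.018 ± 0.043 in WT livers (log2 units, SD, n = 6 each), a difference of 0.036 (SE 0.019). The lowest, median and highest animals were at -0.016, 0.023 and 0.038 in KO livers, against -0.073, -0.028 and 0.039 in WT livers. The groups overlapped: WT replicate 2 (0.039) was the highest of all 12 animals, WT replicate 4 (0.028) was above 5 of the 6 KO animals, and KO replicate 5 was the 1 KO animal below 0. In KO replicates 1 to 6, 23, 22, 25, 28, 13 and 25 of the 35 members were above their own 12-array mean, and in WT replicates 1 to 6, 10, 24, 11, 27, 6 and 10 were. WT replicate 5 had the lowest mean and the fewest members above their own mean. The spread between animals was wider in the WT group, where 4 animals lay below 0. With arrays centred on their median the difference was 0.053, with 29 of 35 members and 60.5% of all genes above 0. After quantile normalization it was 0.015, with 25 of 35 members and 50.8% of all genes above 0. For these settings the share among genes with a mean of at least 1000, 61.2% without such scaling, was not taken. All members but Ndufc2 belong to those bright genes, so the share of all genes is not a like background.

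**Figure D2:**
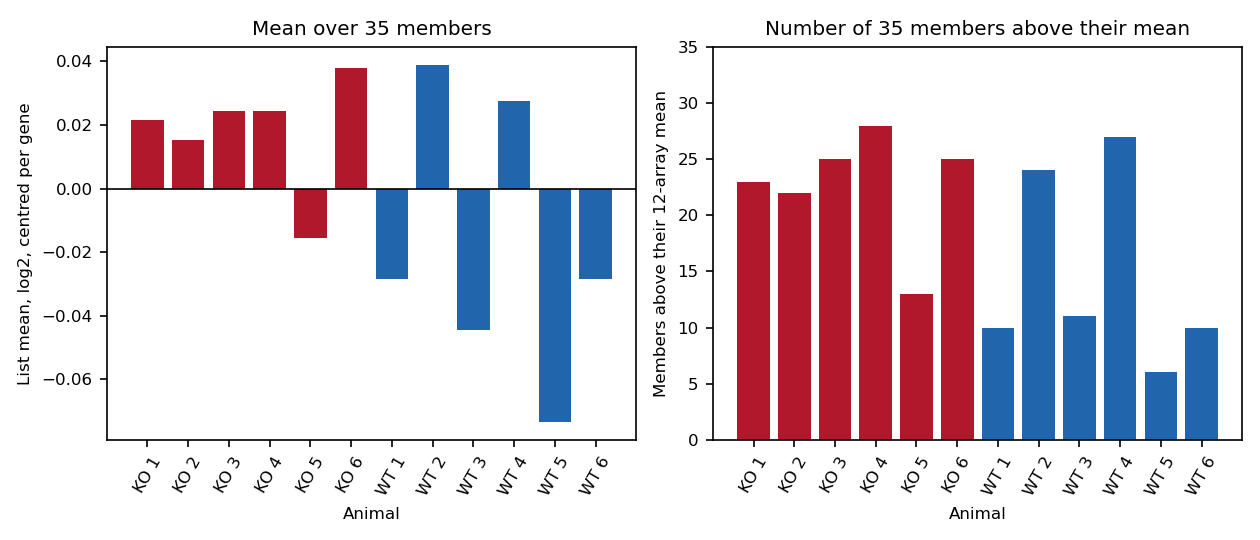
For each animal, KO to the left and WT to the right, the left panel gives the mean over 35 complex I genes (log2, centred per gene) and the right panel the number of the 35 genes above their own 12-array mean. WT replicates 2 and 4, at 24 and 27 genes, lie within the KO range, and WT replicate 5 is lowest at 6.

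Markers of inflammation and of immune cells stood out in some animals, WT replicate 5 among them. Acute phase genes, the liver's response to inflammation, had their highest means in WT replicates 5 and 6 (1.47 and 1.12 on the centred log2 scale) and KO replicate 4 (0.87). Of the 12 acute phase genes 10 were below 0 (median log2 fold change -0.34), and their summed intensity was 43162 to 69383 in KO livers and 41035 to 91059 in WT livers. All 16 Kupffer cell and macrophage markers were below 0 (median -0.32; summed intensity 3866 to 6576 in KO livers and 4561 to 8394 in WT livers), as were 7 of 8 neutrophil markers (median -0.17; 448 to 1887 in KO livers and 438 to 4719 in WT livers) and all 9 B cell markers (median -0.066; 321 to 399 in KO livers and 443 to 688 in WT livers, without overlap), with no marker of these lists at 0 in any array. Lcn2 is in both the acute phase and the neutrophil list. At 359 ± 541 in KO livers and 1150 ± 1651 in WT livers (intensity and SD), it was the brightest neutrophil marker. Among the B cell markers Ighm (log2 fold change -0.46) and Jchain (-0.67) differed most, and Cd79b (-0.0015) least. Elane, Cd79a and Pax5 were below the array median on all arrays, and Cd79b, Blnk and Cd22 had means below every array median in both groups. Other cell types went different ways. Of 9 sinusoidal endothelial markers 8 were above 0 (median 0.041; 3609 to 3986 in KO livers and 2879.5 to 4019 in WT livers), with WT replicate 5 the lowest animal at a mean of -0.27. Of 10 stellate cell and fibroblast markers 7 were below 0 (median -0.089; 5545 to 6511 in KO livers and 5587 to 6713 in WT livers). T and NK cell markers were above 0 in 6 of 10 (median 0.013), cholangiocyte markers in 3 of 6 (-0.0073) and erythroid markers in 4 of 6 (0.043). Of these lists 7, 3 and 2 markers, in that order, were below the array median on all arrays. So was Col1a1 among the stellate cell and fibroblast markers, and such dim readings say little about their cells. No gene of any of these marker lists passed the adjusted limma test. KO replicate 4, with its high acute phase mean, had the most complex I members above their own mean, 28 of 35. WT replicate 3, whose complex I mean (-0.044) was the lowest after WT replicate 5, had an acute phase mean of -0.34. WT replicates 1 and 6 both had a complex I mean of -0.028, with acute phase means of -0.13 and 1.12. The part of these cells and of inflammation in the complex I values was not tested, and in whole liver a cell type's share cannot be told apart from the RNA level within its cells. Without WT replicates 5 and 6 the difference in the complex I mean was 0.019 (SE 0.019) and 25 of 35 members were above 0 (71.4%), beside 53.4% of all genes and 67.1% of those with a mean of at least 1000.

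The title series was uneven between genotypes. With it as a term in the fit the difference of the member means was 0.030 (SE 0.023). Within the 7200 series it was 0.0086 (SE 0.022), and within the 7500 series, where 1 KO animal stood against 4 WT animals, 0.068 (SE 0.047).

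**Figure D3:**
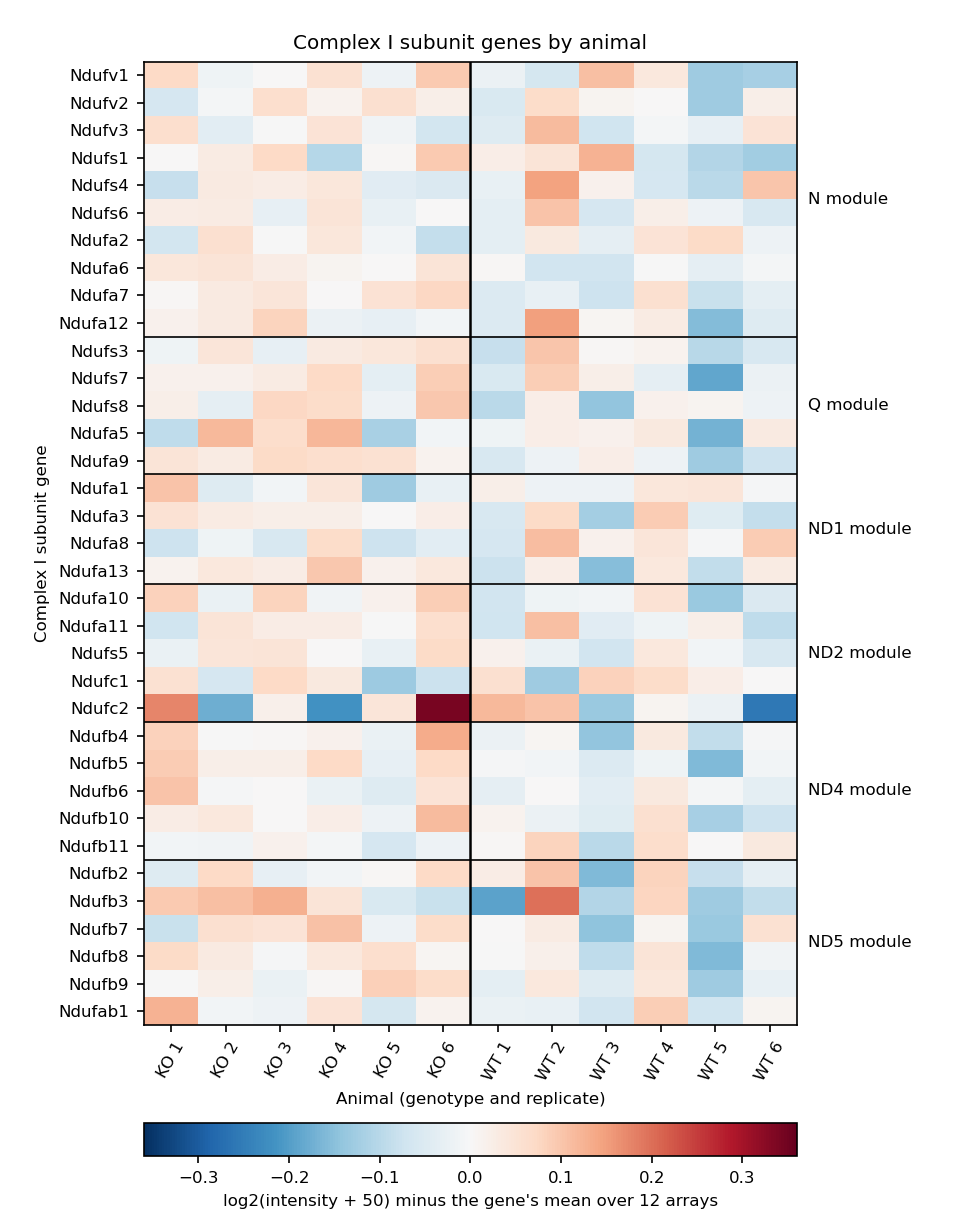
Each row is a complex I subunit gene, ordered by module, and each column an animal, with 6 KO animals left of the line and 6 WT animals right of it. Colour gives log2(intensity + 50) minus the gene's mean over 12 arrays, and most rows are blue, below their mean, in WT replicate 5, where 6 of 35 genes were above it.

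In the N module, which oxidises NADH, 7 of 10 members were above 0 (median log2 fold change 0.025). Its catalytic subunits are Ndufv1, which binds the flavin and NADH, and Ndufv2 and Ndufs1, which carry iron-sulphur clusters. Ndufv1 read 3053 ± 105 in KO livers and 2925 ± 192 in WT livers (0.063; intensity and SD, n = 6 each, here and for the members that follow). Ndufv2 read 3038 ± 95.4 in KO livers and 2980.1 ± 139.6 in WT livers (0.028), and Ndufs1 1507 ± 72.5 in KO livers and 1474 ± 104 in WT livers (0.032). For Ndufs1, Ndufv1 and Ndufv2 the WT range contained every KO animal.

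Among the supernumerary subunits of that module, Ndufa6, a LYR-motif protein that holds the mitochondrial acyl carrier protein, had a lowest, median and highest intensity of 3477, 3561 and 3590.1 in KO livers, against 3308, 3427 and 3486 in WT livers. In 5 of 6 KO animals it was above the highest WT animal, and the groups met in 1 animal each (log2 fold change 0.058, SE 0.039, limma adjusted p = 0.853). Ndufa7 had a lowest, median and highest intensity of 2966, 3047 and 3124 in KO livers, against 2805, 2878 and 3089 in WT livers (log2 fold change 0.069, SE 0.041, limma adjusted p = 0.837). Its 5 WT animals below the lowest KO animal left 1 high WT animal, and all 5 of its probe sets were above 0, from 0.051 to 0.069.

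The other subunits of the N module lay closer to 0. Ndufs4, an assembly-critical subunit whose loss in mice gives a Leigh-like encephalopathy, read 1403 ± 52.6 in KO livers and 1430.2 ± 96.8 in WT livers (-0.025). Ndufs6, a zinc-binding subunit, read 2626 ± 57.6 in KO livers and 2598 ± 115 in WT livers (0.016). Ndufa12, which takes the place of an assembly factor late in building the module, read 3149 ± 90.7 in KO livers and 3104 ± 222 in WT livers (0.023). In these 3 genes the WT range contained every KO animal. Ndufa2, a subunit with a thioredoxin-like fold, read 3265 ± 129.9 in KO livers and 3318 ± 107 in WT livers (-0.023). Ndufv3, the small flavoprotein subunit, read 3809.6 ± 132 in KO livers and 3818 ± 188 in WT livers (-0.0023), the smallest difference of all members.

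All 5 members of the Q module, where ubiquinone is reduced, were above 0 (median 0.062). Ndufa9, a supernumerary subunit with a dehydrogenase-like fold at the junction with the membrane arm, had the smallest unadjusted p of the members, with a lowest, median and highest intensity of 2465, 2531 and 2564 in KO livers, against 2231, 2377 and 2482 in WT livers. In 5 of 6 KO animals it was above the highest WT animal, and 5 of 6 WT animals were below the lowest KO animal. The means were 2522 ± 36.9 in KO livers and 2366 ± 87.4 in WT livers (log2 fold change 0.091, SE 0.041, limma adjusted p = 0.785).

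The catalytic subunits of the Q module were also near 0. Ndufs8, which carries iron-sulphur clusters, had a lowest, median and highest intensity of 3222, 3399 and 3529 in KO livers, against 2984, 3285 and 3355 in WT livers (log2 fold change 0.069, SE 0.046, limma adjusted p = 0.853), and 3 of its KO animals were above the highest WT animal. All 6 of its probe sets were above 0, from 0.049 to 0.11. Ndufs7, which carries the last cluster before ubiquinone, read 2322 ± 72.1 in KO livers and 2226 ± 143 in WT livers (0.062), and its second probe set had the opposite sign (-0.070). Ndufs3, a scaffold of the module, read 3007 ± 74.1 in KO livers and 2923 ± 156 in WT livers (0.042). Ndufa5, a supernumerary subunit, read 1636 ± 119.6 in KO livers and 1603 ± 87.1 in WT livers (0.027). Together with those of the N module, all 6 catalytic subunits on the list were above 0 with a median of 0.052, and so were 22 of 29 supernumerary subunits, with a median of 0.036.

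The 4 members of the ND1 module, at the foot of the membrane arm, were split, with 2 above 0 and 2 below. Ndufa13, also known as GRIM-19 for its link to cell death induced by interferon and retinoic acid, had a lowest, median and highest intensity of 4247, 4303 and 4499 in KO livers, against 3773, 4128 and 4322 in WT livers (log2 fold change 0.077, SE 0.046, limma adjusted p = 0.842). Its WT values spread over a range that contained most KO animals. Ndufa8, a subunit of the intermembrane space with paired cysteine motifs, was the lowest member, with a lowest, median and highest intensity of 2086, 2126 and 2306 in KO livers, against 2106, 2246 and 2382 in WT livers (log2 fold change -0.065, SE 0.046, limma adjusted p = 0.862). In 5 of 6 KO animals it was below the WT median, and the groups overlapped over most of their range. Ndufa3, a small membrane subunit, read 3784 ± 43.7 in KO livers and 3659.7 ± 222 in WT livers (0.049). Ndufa1, another small membrane subunit, encoded on the X chromosome, read 5807 ± 321 in KO livers and 5890.1 ± 116 in WT livers (-0.022).

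In the ND2 module 4 of 5 members were above 0 (median 0.036). Ndufa10, a subunit related to nucleoside kinases, had a lowest, median and highest intensity of 2218, 2336 and 2404 in KO livers, against 2055, 2205 and 2342 in WT livers (log2 fold change 0.075, SE 0.045, limma adjusted p = 0.840). In 3 KO animals it was above every WT animal, and 3 WT animals were below every KO animal. Ndufs5, a subunit on the intermembrane-space side, read 1562 ± 44.9 in KO livers and 1522 ± 45.5 in WT livers (0.036), and Ndufa11, a membrane-spanning subunit, 1308 ± 44.1 in KO livers and 1282 ± 67.8 in WT livers (0.029). Ndufc1 read 2737 ± 158 in KO livers and 2807 ± 147 in WT livers (-0.036). Ndufc2 was not usefully measured: the only probe set matched to it alone read 26.2 ± 11.3 in KO livers and 22.7 ± 7.07 in WT livers. These means lay below every array median, with 1 KO animal at 43.8 above its own. The Ndufc2 value of 0.061 (SE 0.092) therefore says little about the gene. Without it, 27 of 34 members were above 0 with a median of 0.039.

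The far end of the membrane arm held the ND4 and ND5 modules. In the ND4 module 4 of 5 members were above 0 (median 0.062). Ndufb5 had a lowest, median and highest intensity of 3402, 3589.6 and 3702 in KO livers, against 3106, 3440.3 and 3462 in WT livers (log2 fold change 0.083, SE 0.044, limma adjusted p = 0.807), and 5 of 6 KO animals were above the highest WT animal, with WT replicate 5 far below the other WT animals. Ndufb4 had a lowest, median and highest intensity of 2977, 3046 and 3323 in KO livers, against 2738, 3001 and 3102 in WT livers (log2 fold change 0.071, SE 0.047, limma adjusted p = 0.853), with 2 high KO animals above the WT range. Ndufb10, a subunit with paired cysteine motifs, read 2314 ± 74.8 in KO livers and 2216 ± 99.4 in WT livers (0.062). Ndufb6 read 3571 ± 139 in KO livers and 3504 ± 71.4 in WT livers (0.026). Ndufb11, an X-linked subunit, read 5419 ± 97.0 in KO livers and 5536 ± 239 in WT livers (-0.030).

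All 6 members of the ND5 module were above 0 (median 0.056). Ndufb8, a membrane-spanning subunit, had a lowest, median and highest intensity of 2914, 2998 and 3070.2 in KO livers, against 2611, 2907 and 3018 in WT livers (log2 fold change 0.068, SE 0.046, limma adjusted p = 0.853), and the WT animals spread below the KO range in 3 cases. Ndufb3 varied most between animals apart from Ndufc2 and read 2316 ± 143 in KO livers and 2195 ± 237 in WT livers (0.080, SE 0.068). Ndufb7, with paired cysteine motifs, read 2185 ± 103 in KO livers and 2096 ± 126 in WT livers (0.060). Ndufb9, another LYR-motif subunit, read 5948 ± 177 in KO livers and 5741 ± 247 in WT livers (0.051), and Ndufb2 1707 ± 60.9 in KO livers and 1685 ± 119.6 in WT livers (0.021). Ndufab1, the acyl carrier protein itself, which also serves mitochondrial fatty acid synthesis, read 4318 ± 199 in KO livers and 4222 ± 178 in WT livers (0.032).

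**Figure D4:**
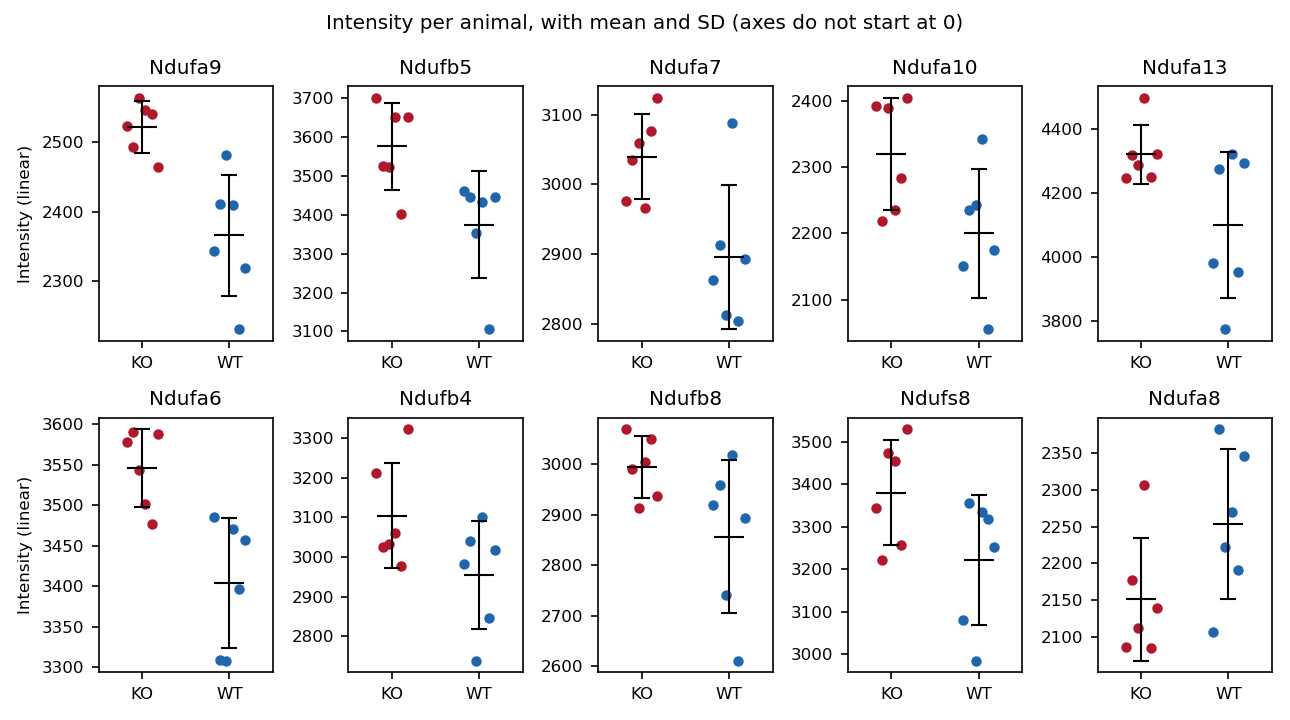
Intensity of the 10 complex I genes with the smallest unadjusted p, 1 point per animal, KO left of WT, with the mean and SD as bars and axes that do not start at 0. Ndufa9, Ndufa6 and Ndufb5 each have 5 of 6 KO animals above the highest WT animal, and Ndufa8 is the 1 gene of the 10 with the lower mean in KO livers.

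The signs of some members depended on the probe set. Of the 18 members with several probe sets of a mean intensity of at least 1000, 13 had all of them above 0 and 5 had both signs: Ndufv2, Ndufs7, Ndufc1, Ndufb6 and Ndufb11. Ndufs7 had 0.062 for the brightest probe set and -0.070 for the other, and Ndufb6 had 0.026 and -0.098. Over all 62 such probe sets of the members, 50 were above 0, with a median of 0.040. The probe sets of 1 gene share its RNA, so these are not separate measurements of the list. In the authors' deposited table the fold changes of the 35 probe sets used ran from -1.05 to 1.18, with 1.18 for Ndufc2. Its unadjusted P was under 0.05 for Ndufa9 (0.0186), Ndufa7 (0.0417) and Ndufa6 (0.0474), 3 of 35 members. Over all 45037 probe sets of that deposited table, dim ones and those without a gene included, the share was 1.7%. The members were each read through the brightest probe set of the gene, so these shares cover unlike sets. In the limma fit, 1 of 35 members (2.86%) and 6.29% of all genes had an unadjusted p under 0.05.

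**Figure D5:**
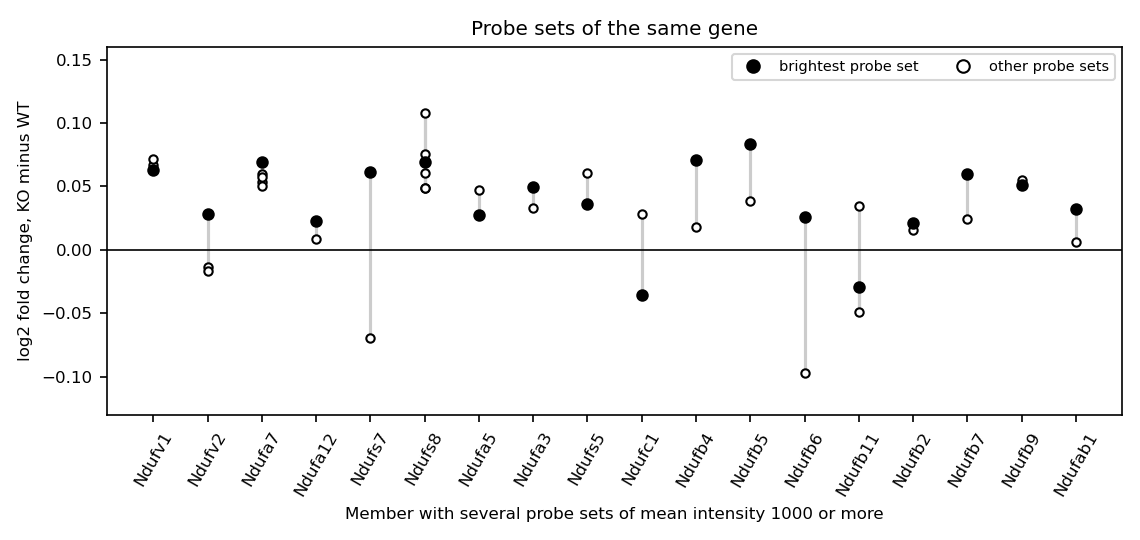
Log2 fold changes, KO minus WT, of every probe set with a mean intensity of at least 1000 are drawn for the 18 complex I genes that have several, with the brightest filled and the others open. Genes such as Ndufa7 and Ndufs8 have all probe sets above 0, and Ndufb6 and Ndufs7 have them on both sides of 0.

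Genes around complex I were read the same way. Of 19 measured complex I assembly factors, which build the complex and then leave it, 9 were above 0 and 10 below (median -0.0046), and none passed. The other respiratory complexes had 29 of 39 genes above 0, or 74.4%, with a median of 0.023: 3 of 4 for complex II (0.077), 8 of 9 for complex III (0.025), 8 of 11 for complex IV (0.014) and 10 of 15 for the ATP synthase (0.028). Their mean per animal differed by 0.022 (SE 0.017), and none of the 39 passed. WT replicate 5 was the lowest animal for the means of complexes II, III and V. Of 10 regulators of mitochondrial biogenesis, 8 were above 0 (median 0.034), and none passed. These lists share the animals and arrays with complex I, and the difference between lists was not tested.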

How the data were processed

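Livers of 6 KO and 6 WT mice were measured, 1 array each, grouped by the labelled genotype. Replicates are numbered in record order. The deposited intensity values are on a linear scale and reach 0. Per the submitters' processing notes the authors used RMA, version unstated. How RMA led to a linear scale with values at 0 is not explained. The deposited table also holds the authors' signed fold change and t statistic (each a score) and unadjusted p-values. Its symbol block at the right stands on the wrong rows (1 of 45037 rows matched as placed), so a probe set's gene came from the number on its row (36239 probe sets) or, failing that, the accession (1034) and was named from the RefSeq table of GRCm38.p6. Probe sets with several genes (1285) or no gene (6479) were left out. Each of the 35 members had at least 1 probe set matched by its own gene number, and probe sets matched through the accession were not barred for them. limma 3.58.1 in R 4.3.3 was fitted to log2(intensity + 50) over 18011 genes, 1 probe set per gene, two-sided, with Benjamini-Hochberg adjustment, after a test on simulated data. P-values set the difference between genotypes against the spread between animals, and limma draws each gene's variance toward a value shared by all genes. The number of arrays limits the precision (median SE 0.046 for members). All members are named, the 10 with the smallest unadjusted p in more detail, and up to 2 genes by that p from each related list. The members, gene lists, offset and alternatives were chosen with earlier results of these data known. The mean over members was not tested. Alternatives covered the offset, scaling, probe set choice, a filter on dim genes, the variance model, title series and arrays left out. Mitochondrially encoded subunits were not analysed here.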

Additional observations from a re-analysis of the deposited data

Results flagged for a closer look

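WT replicate 5 read 1430.1 for Ndufa5, where the other WT animals lay between 1599 and 1657. The same animal read 3105.5 for Ndufb5, where the other WT animals lay between 3353 and 3462. KO replicate 4 read 4499 for Ndufa13, where the other KO animals lay between 4247 and 4323. Each of these animals stood apart from the rest of its group by more than Dixon's 95% critical value for 6 samples. Chance gives about 1 such gap in 20 groups, and 3 were found among 72 groups of values.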

How the results depend on the processing

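No member passed the adjusted threshold under any of the 25 alternatives run per member (lowest adjusted p 0.651 among 874 member values). The number of members above 0 stayed between 23 and 30, the median log2 fold change between 0.014 and 0.073, and the difference in member means between 0.0086 (7200 series only) and 0.068 (7500 series only). It was 0.015 after quantile normalization, 0.016 with the second brightest probe set, 0.019 without WT replicates 5 and 6, 0.053 with arrays centred on their median and 0.025 to 0.047 with any 1 animal left out. Centring moved the share of all genes above 0 to 60.5% and quantile normalization to 50.8%, with 29 and 25 of 35 members above 0. For neither was the share taken among genes with a mean of at least 1000. Leaving out Ndufc2 was chosen after seeing the data, as was the background of genes with a mean of at least 1000. The filter on dim genes removed Ndufc2. The count of all genes past the threshold was 0 with an offset of 16, a floor of 10, title series as a term, in either series alone or without WT replicates 5 and 6, and 0 or 1 with any 1 animal left out. It was 0 without any 1 of WT replicates 1 to 5 or KO replicates 1, 2, 3 and 5. The gene lost is Sirt4.

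Of the 35 members, 17 kept their sign under every alternative run, among them Ndufa9, Ndufa6, Ndufa7, Ndufb5 and Ndufa8. The other 18 turned in 50 of the 874 values tried. Of these 50, 8 rest on probe sets with a mean intensity under 1000 and say little about the sign of the gene, which leaves 42 turns in 16 members, without Ndufb8 and Ndufc2. Some of the alternatives could not turn a sign. The variance model and the filter on dim genes leave a gene's log2 fold change as it was. Probe set choice could change it only in the 23 members with a second probe set, and Ndufa9, Ndufa6 and Ndufa8 have only 1. Of the 23 second brightest probe sets 5 had a mean under 1000, among them those of Ndufs1 (10.2, below every array median), Ndufb8 (65.9) and Ndufa11 (86.7). The mean over all probe sets weighs dim ones equally, the one named for Ndufs1 and 4 of Ndufab1 (70.2 to 331), whose 2 probe sets over 1000 were both above 0 (0.032 and 0.0062). With the second brightest probe set the sign turned, with a log2 fold change of -0.00078 for Ndufa11, -0.098 for Ndufb6, -0.041 for Ndufb8, 0.028 for Ndufc1, -0.084 for Ndufs1, -0.070 for Ndufs7 and -0.013 for Ndufv2. With the mean over all probe sets of a gene the sign turned, with a log2 fold change of -0.013 for Ndufab1, -0.036 for Ndufb6, -0.026 for Ndufs1, -0.0041 for Ndufs7 and -0.00074 for Ndufv2. After quantile normalization the sign turned, with a log2 fold change of -0.014 for Ndufa12, -0.00064 for Ndufb2, -0.0080 for Ndufs6, -0.0016 for Ndufv2 and 0.0023 for Ndufv3. After centring arrays on their median the sign turned, with a log2 fold change of 0.015 for Ndufv3. With title series as a term the sign turned, with a log2 fold change of -0.010 for Ndufa12, -0.00011 for Ndufb2 and -0.0052 for Ndufs6. In the 7200 series only the sign turned, with a log2 fold change of -0.014 for Ndufa11, -0.033 for Ndufa12, 0.0027 for Ndufa2, -0.066 for Ndufb2, 0.028 for Ndufc1, -0.14 for Ndufc2, -0.036 for Ndufs1 and -0.024 for Ndufs6. In the 7500 series only the sign turned, with a log2 fold change of -0.020 for Ndufb3. With both WT replicates 5 and 6 left out the sign turned, with a log2 fold change of -0.022 for Ndufa12, -0.00072 for Ndufa5, -0.0024 for Ndufb2, -0.018 for Ndufs1 and 0.0019 for Ndufv3. With the 3 KO arrays with a suffixed title left out the sign turned, with a log2 fold change of 0.0032 for Ndufa2, -0.014 for Ndufab1, -0.0038 for Ndufb6, -0.0079 for Ndufc2 and -0.00055 for Ndufs6. With 1 animal left out at a time, signs turned within log2 fold changes of -0.045 to 0.0017 for Ndufa1, -0.0060 to 0.055 for Ndufa12, -0.0040 to 0.054 for Ndufa5, -0.0092 to 0.043 for Ndufb2, -0.0010 to 0.11 for Ndufc2, -0.047 to 0.0011 for Ndufs4 and -0.017 to 0.020 for Ndufv3. Leaving out animals or probe sets changes what is averaged; no other cause was tested. No paired analysis was possible because the replicate numbers come from record order and pair no animals.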

Other observations

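Beyond complex I itself, up to 2 genes of each related list, those with the smallest unadjusted p in the list, are given as values, since none passed. The choice takes the genes that differ most for their spread and does not represent the lists, whose counts in both directions stand with their medians above. The assembly factor Ndufaf7, a methyltransferase, read 183 ± 11.6 in KO livers and 206 ± 11.5 in WT livers (log2 fold change -0.13), and Dmac2 237 ± 29.8 in KO livers and 216 ± 20.9 in WT livers (log2 fold change 0.11). Among regulators of mitochondrial biogenesis, Tfb2m, a factor of mitochondrial transcription, read 932 ± 53.3 in KO livers and 847 ± 68.4 in WT livers (log2 fold change 0.13), and Tfam, which packages and transcribes mitochondrial DNA, 682 ± 39.1 in KO livers and 630.3 ± 42.1 in WT livers (log2 fold change 0.11). Their limma adjusted p-values were 0.749, 0.853, 0.774 and 0.801.

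In the other respiratory complexes the flavoprotein subunit of succinate dehydrogenase, Sdha, read 3919.9 ± 72.1 in KO livers and 3673 ± 280.2 in WT livers (log2 fold change 0.096), and its membrane anchor Sdhd 2882 ± 160.4 in KO livers and 2727 ± 133 in WT livers (log2 fold change 0.078). Cyc1, the cytochrome c1 of complex III, read 4513 ± 113 in KO livers and 4296 ± 201 in WT livers (log2 fold change 0.071), and Uqcrb, which helps bind ubiquinone, 11707 ± 247 in KO livers and 11444 ± 639 in WT livers (log2 fold change 0.034). Cox5a and Cox6c, both subunits of cytochrome c oxidase, had opposite signs, with 7248 ± 224 in KO livers and 7551 ± 306 in WT livers (log2 fold change -0.058) for Cox5a and 6023 ± 125 in KO livers and 5786 ± 244 in WT livers (log2 fold change 0.058) for Cox6c. Atp5a1, the alpha subunit of the ATP synthase, read 6151 ± 232 in KO livers and 5886 ± 347 in WT livers (log2 fold change 0.064), and Atp5g1, which encodes the c subunit of its rotor, 2589.7 ± 85.8 in KO livers and 2495 ± 167 in WT livers (log2 fold change 0.055). Limma adjusted p-values of these 8 genes ran from 0.809 (Sdha) to 0.943 (Uqcrb). In the same lists Sdhc (-0.024), Ppargc1a (-0.097) and Nrf1 (-0.055) had log2 fold changes below 0, and were named after their values were seen.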
